A study of Mus musculus with 34 samples.

Results

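The genes of the major histocompatibility complex (MHC) were followed in cumulus cells (CCs), the somatic cells that surround the oocyte, in 34 RNA sequencing libraries of C57BL/6J mice. The members were the entries of the count table named H2- followed by a locus, together with B2m, Tap1, Tap2, Tapbp, Cd74 and Ciita, which gave 41 of 25965 entries. Of these, 24 encode class I heavy chains, 4 serve class I assembly, 4 encode class II chains, 6 serve class II loading, and 1 is the class II transactivator Ciita. The other 2, H2-Ke2 and H2-Ke6, carry the name for their place in the complex and do not present antigen. In all, 38 members lay on chromosome 17, between positions 33915899 and 37483552 of GRCm38.

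Each library held about 50 CCs from 1 cumulus-oocyte complex, taken after superovulation. Mice of the leptin experiment were 8 weeks of age at the start. They were injected over 16 days with saline (16 C, n = 3) or with leptin at 100 µg daily (16 L, n = 5). In the diet experiment, mice had chow diet (CD, 11% of energy from fat) or high-fat diet (HFD, 58%) from 8 weeks of age, for 4 weeks (CD n = 5, HFD n = 5) or 16 weeks (CD n = 6, HFD n = 7). A further group on 16 weeks of HFD was labelled as low weight gainers (n = 3). No group carried a transgene or a deletion in the labels. The p-values below measure the spread between these libraries.

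Class I molecules are a heavy chain bound to beta-2-microglobulin (B2m), loaded in the endoplasmic reticulum with peptides that the Tap1 and Tap2 transporter brings in, with Tapbp (tapasin) as a bridge. Nearly every nucleated cell makes them, and natural killer and CD8 T cells read them. Class II molecules are pairs of alpha and beta chains guarded by the invariant chain Cd74. They are made mostly by macrophages, dendritic cells and B cells under the transactivator Ciita, and the ovary holds resident macrophages that can travel with collected CCs.

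Library totals ran from 1104611 to 13207018 counts. The summed level of 13 cumulus and granulosa genes was 2752 to 6809 CPM (the count scaled to a common library size, with TMM factors over the 34 libraries) in 33 libraries and 847 in 16 L replicate 18. In that library 6 oviduct genes summed to 34222 CPM and 6 theca and stroma genes to 1512 CPM, against at most 1735 and 51.0 CPM in the other libraries. Both of these maxima were in 16 L replicate 21. In it 3 red blood cell genes, those present of 5 listed, summed to 1942 CPM, beside 11250 CPM in replicate 18. In the other libraries these genes summed to at most 185 CPM. The 16 L results are given with all libraries and, for each call, again without replicate 18. The 7 oocyte genes summed to 258 CPM in 4-week HFD replicate 5 and to at most 14.5 CPM elsewhere. In bulk CCs, fewer cells of a type and less RNA per cell cannot be told apart.

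The promoters of 6 members are shown because class I and class II genes are known to share short upstream elements, and because these members stand for the heavy chains, the assembly genes and the class II chains described below. Each run is the 250 bases before the RefSeq start (GRCm38.p6), 5′ to 3′ on the gene's strand, with 4 motifs in capitals, searched on both strands: the inverted CCAAT box ATTGG, the core TGACG of the element bound by CREB family factors, the NF-kB element GGGGATT and the interferon element GAAANNGAAA. The positions are chr17:34000348-34000597 (minus strand) for H2-K1, chr17:35469839-35470088 (plus) for H2-Q10, chr2:122147437-122147686 (plus) for B2m, chr17:34187306-34187555 (plus) for Tap1, chr17:34287824-34288073 (minus) for H2-Aa and chr17:34305617-34305866 (plus) for H2-Eb1.
H2-K1: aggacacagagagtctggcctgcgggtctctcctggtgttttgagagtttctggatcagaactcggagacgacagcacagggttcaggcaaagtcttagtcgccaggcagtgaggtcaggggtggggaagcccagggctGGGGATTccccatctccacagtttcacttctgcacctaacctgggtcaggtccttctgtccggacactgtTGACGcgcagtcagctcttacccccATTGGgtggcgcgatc
H2-Q10: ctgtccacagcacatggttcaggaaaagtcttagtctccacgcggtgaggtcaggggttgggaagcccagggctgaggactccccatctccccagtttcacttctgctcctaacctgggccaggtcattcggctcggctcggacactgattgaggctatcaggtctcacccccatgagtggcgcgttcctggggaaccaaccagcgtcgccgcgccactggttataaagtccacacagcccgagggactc
B2m: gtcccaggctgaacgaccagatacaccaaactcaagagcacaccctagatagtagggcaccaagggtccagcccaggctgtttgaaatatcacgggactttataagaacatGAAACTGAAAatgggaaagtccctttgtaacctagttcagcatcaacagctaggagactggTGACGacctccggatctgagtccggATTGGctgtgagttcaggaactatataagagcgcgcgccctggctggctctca
Tap1: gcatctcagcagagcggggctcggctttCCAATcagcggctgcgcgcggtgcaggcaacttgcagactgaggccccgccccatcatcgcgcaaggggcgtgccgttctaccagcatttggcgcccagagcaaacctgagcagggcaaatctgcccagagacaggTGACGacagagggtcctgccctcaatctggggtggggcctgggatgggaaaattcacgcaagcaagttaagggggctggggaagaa
H2-Aa: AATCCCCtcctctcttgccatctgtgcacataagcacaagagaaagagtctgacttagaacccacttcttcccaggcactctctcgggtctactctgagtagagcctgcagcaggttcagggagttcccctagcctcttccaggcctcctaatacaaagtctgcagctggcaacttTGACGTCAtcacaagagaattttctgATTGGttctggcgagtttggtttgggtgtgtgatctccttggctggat
H2-Eb1: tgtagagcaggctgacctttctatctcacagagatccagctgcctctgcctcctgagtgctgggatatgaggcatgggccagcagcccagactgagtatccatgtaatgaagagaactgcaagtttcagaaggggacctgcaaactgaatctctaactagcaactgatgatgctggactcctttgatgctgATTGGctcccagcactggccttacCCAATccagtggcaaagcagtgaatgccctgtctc
From the start outwards, H2-K1 held ATTGG, then TGACG, then GGGGATT. H2-Q10 held none of the 4, although 157 of the 176 bases aligned between them were the same (89.2%). B2m held ATTGG as well as TGACG and the interferon element. In H2-Aa the TGACG motif occurred on both strands as 1 palindrome, so its 2 matches overlap. Promoter entries were used for 34 of the 41 members, without H2-T24. Some of these windows overlap annotated exons of the gene itself, by all 250 bases in H2-D1, 154 in H2-T23 and 146 in Tapbp. ATTGG was in 30 of the 34, against 34.5% of all 27025 promoters of that length, and TGACG was in 14, against 17.9%. GGGGATT was in 10 of the 34 (2.78% of all promoters), 9 of them class I heavy chains, and the interferon element was in 3 (3.04%). These genes descend from common ancestors, so their matches are not independent, and a match is a description of letters.

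Of the 41 members, 32 had at least 1 read and 23 passed the filter on low counts in at least 1 comparison. The 9 without a read in any library were all class I heavy chains, namely H2-T3 and H2-M1, H2-M9, H2-M11 and 5 genes of the H2-M10 group, which are known for expression in vomeronasal neurons. The limit that a count of 0 allows, 3 reads, was 0.215 to 2.76 CPM in single libraries and covers counting error only. Ciita had 56 reads over 19 libraries, with at most 8 in one, and passed no filter.

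Per kilobase of exon, B2m was the most abundant member, with a median of 340 CPM per kb over the 34 libraries. H2-K1 followed at 85.4 and H2-Q10 at 71.6, then H2-D1 at 59.0, Tapbp at 56.9 and H2-T23 at 53.9 CPM per kb. H2-K1 and H2-D1 encode the classical heavy chains of this strain, H2-T23 encodes Qa-1, a ligand of natural killer receptors, and H2-Q10 encodes a secreted class I protein best known from liver. Within libraries, B2m was above H2-K1 per kb in 32 of 34, H2-K1 above H2-Q10 in 29 and H2-Q10 above H2-D1 in 28. H2-D1 was above Tapbp in only 14 of 34 libraries and Tapbp above H2-T23 in 23, so the lower end of this order varied between libraries. The lengths count every annotated exon of a gene, so the order also depends on the annotation. Before division by length, the group median of H2-K1 to H2-Q10 reads was 1.98 in 16 L and 0.673 to 0.983 in the other groups. Tap2 and Tap1 were far lower, at 7.80 and 2.26 CPM per kb. Of the class II genes, H2-Ab1 and Cd74 had medians of 21.5 CPM per kb each, H2-Eb1 5.00 and H2-Aa 4.35.

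H2-Q10 stood apart in 1 library, and is named here because of it, after its values were seen. It lay between 184 and 432 CPM in 33 libraries. In 16 L replicate 18 it was 5.30 CPM, from 31 reads, while H2-K1 there was 229 CPM and H2-D1 177 CPM. That is the library with high oviduct and stroma genes and low cumulus genes, and the part of this in the value was not tested.

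**Figure D1:**
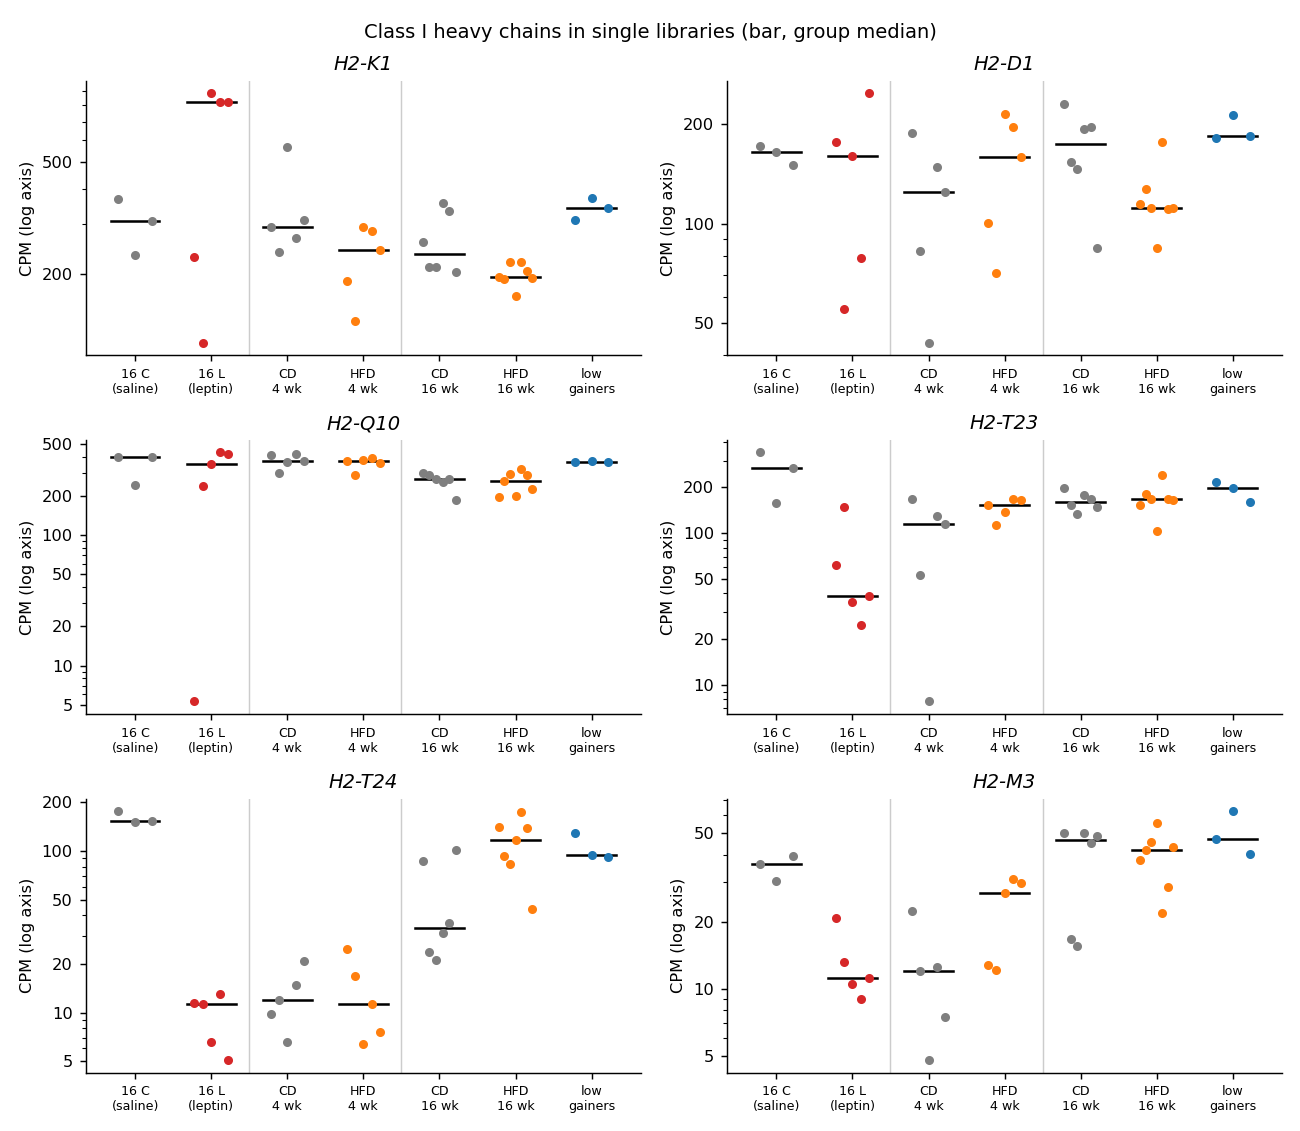
Levels of 6 class I heavy chains in every library, in CPM on log axes that differ between panels, by group, with a bar at the group median. H2-T24 was 151 to 177 CPM in 16 C and 5.07 to 13.1 CPM in 16 L, and H2-Q10 was 5.30 CPM in 1 library of 16 L.

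The first comparison set 16 L against 16 C. These groups also differed in TMM factor and, in most leptin libraries, in oviduct genes and in the sum of the cumulus and granulosa genes. That sum was 4189 to 5190 CPM in 16 C. It was 847, 3261, 2752, 4366 and 2962 CPM in 16 L replicates 18, 19, 20, 21 and 23. Of 12 such genes tested, 0 were called and 5 had a positive log2 fold change, so the sum does not stand for the list. The part of leptin cannot be told apart from these differences. H2-T24, a non-classical class I heavy chain of the T region, fell by 4.07 on the log2 scale, and H2-M3, which presents formylated peptides, was lower as well. H2-Eb1, a class II beta chain, was higher. The classical class I pair and B2m did not pass the test. Of 21 members tested, 1 was called higher and 2 lower by edgeR at an adjusted p under 0.05. Over all 11723 genes tested 8.56% were called, 4.06% higher and 4.5% lower, so the share of members called was not far from the share of all genes. Without replicate 18, 9 of 20 members were called, 3 higher and 6 lower, beside 41.8% of all 11077 genes. The 3 higher were H2-Eb1, H2-Aa and H2-Ob, and the 6 lower were H2-T24, H2-M3, H2-T23, H2-T22, Tapbp and H2-Ke2. The members' median log2 fold change was 0.42, also with H2-Ob at its bound, beside 0.27 over all genes.

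H2-T24 (chr17:36005695-36020560, minus strand) was 177, 151 and 154 CPM in 16 C replicates 1, 2 and 3. In 16 L replicates 18, 19, 20, 21 and 23 it was 11.5, 11.3, 6.55, 13.1 and 5.07 CPM. Every leptin library was below every saline library by a wide margin, replicate 18 included. The group means were 9.50 ± 3.48 CPM in 16 L (SD, n = 5) and 160.4 ± 14.1 CPM in 16 C (SD, n = 3), with a log2 fold change of -4.07 (SE 0.387, edgeR adjusted p = 0.00452). Without replicate 18 the log2 fold change was -4.25. The gene was called in all 7 alternative settings and without each of the 8 libraries in turn. Its fall was known from these data beforehand, and these settings reuse the same libraries, so they are no independent support. It lies within the span of an antisense RNA, A930015D03Rik, which had at most 28 reads in a library and shares no exon bases with it in GENCODE M21. Other members do share exon bases with a neighbour, and the libraries keep no strand. Tap1 shares 212 bases with Psmb9 (at most 191 reads in a library), Tap2 533 with Gm15821 (at most 150) and 165 with Gm20496 (at most 120), and Tapbp 149 with Zbtb22 (at most 181), so part of their reads is uncertain.

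The level of H2-T24 also differed between experiments. In the 4-week groups it was 6.43 to 24.8 CPM, near the level of 16 L and far below 16 C. In the 16-week groups it was 21.1 to 173 CPM. These experiments were not tested against each other. The TMM factor of the libraries moved along with it, at 0.640 to 0.737 in 16 C, 0.894 to 1.32 in 16 L, 1.11 to 1.39 at 4 weeks and 0.723 to 1.37 at 16 weeks, and its part in the level of H2-T24 was not tested. With total counts in place of TMM the log2 fold change was -3.30, still called, while the median over all genes moved from 0.27 to 1.08.

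H2-M3 was 36.4, 30.4 and 39.4 CPM in 16 C and 20.7, 13.2, 10.5, 8.97 and 11.2 CPM in 16 L, in the order of replicates given above. The groups did not overlap. The log2 fold change was -1.44 (SE 0.369, edgeR adjusted p = 0.0438), but the call was kept in only 2 of 8 leave-outs and was lost with total counts, at -0.69. Without replicate 18 it was called (-1.76, adjusted p = 0.00101). H2-T23 was lower in each leptin library than in each saline library without passing the test (-2.04, SE 0.573, edgeR adjusted p = 0.0538), as was Tapbp (-1.49, SE 0.451, adjusted p = 0.0649). Without replicate 18 both were called, H2-T23 at -2.11 (edgeR adjusted p = 0.0146) and Tapbp at -2.02 (adjusted p = 0.000266). Of the 21 members tested, 5 did not overlap between the groups, close to the 23.4% of all genes tested that did not.

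H2-K1 split the leptin group. It was 883, 822 and 825 CPM in replicates 20, 21 and 23, and 229 and 113 CPM in replicates 18 and 19, against 370, 233 and 309 CPM in 16 C. The 3 highest leptin libraries lay above all saline libraries and the other 2 below them. The log2 fold change was 0.92 (SE 0.673, edgeR adjusted p = 0.365). H2-D1, its classical partner, was 54.9 to 248 CPM in 16 L and 150 to 172 CPM in 16 C (log2 fold change -0.18, SE 0.482, edgeR adjusted p = 0.824). Neither was called without replicate 18, at 1.06 and -0.35. Oviduct genes summed to 1110, 1735 and 300.5 CPM in replicates 20, 21 and 23 and to 10.5 CPM in replicate 19, beside 26.5 to 109 CPM in 16 C. In replicate 18 oviduct genes summed to 34222 CPM, and cumulus, stroma and red blood cell genes stood apart there too. The part of oviduct genes in the H2-K1 level was not tested.

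The H2-K1 and H2-T23 reads were set against each other because of this split, a choice made after the values were seen, and are given without a test. A ratio within a library does not depend on its scaling. It was 21.4 to 33.1 in 16 L replicates 20, 21 and 23 and 73.2 in 4-week CD replicate 2, where H2-T23 had 13 reads. In the other 30 libraries it ran from 0.757 to 4.49. H2-K1 was 568 CPM in that 4-week library, and at most 372 CPM in the 30.

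**Figure D2:**
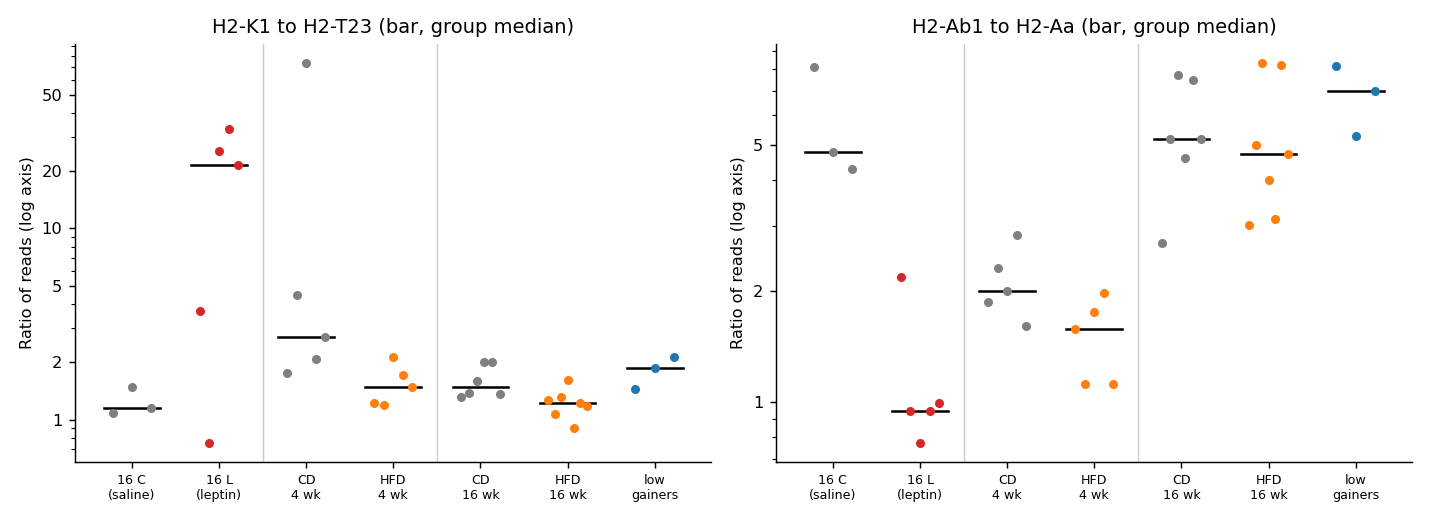
Ratio of H2-K1 to H2-T23 reads (left) and of H2-Ab1 to H2-Aa reads (right) in every library, on log axes, by group with a bar at the median. In 4 libraries the first ratio lay between 21.4 and 73.2, and the second was 0.774 to 2.19 in 16 L and 4.30 to 8.14 in 16 C.

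Of the class II genes, H2-Eb1 alone was called, higher in 16 L. It was 3.79, 9.71 and 4.25 CPM in 16 C and 55.3, 10.6, 100.0, 23.5 and 87.5 CPM in 16 L. All leptin libraries were above all saline libraries, with replicate 19 just above. The log2 fold change was 3.14 (SE 0.799, edgeR adjusted p = 0.0433), and the call was kept in 2 of 8 leave-outs, without replicate 18 (2.99) and without replicate 19. The sum of 10 class II genes was 73.0 to 193 CPM in 16 C and 65.8, 159, 636, 658 and 695 CPM in 16 L, with 16 L replicate 19 the lowest of all 8 libraries. H2-Aa, the alpha chain of I-A, was 5.31 to 18.7 CPM in 16 C and 14.005 to 206 CPM in 16 L (3.28, SE 0.899, adjusted p = 0.0515). Its partner chain H2-Ab1 was 33.2 to 89.2 CPM and 13.2 to 204 CPM (1.10, SE 0.802, adjusted p = 0.361), and Cd74 23.2 to 67.6 CPM and 26.1 to 231 CPM (1.68, SE 0.812, adjusted p = 0.181). Without replicate 18 H2-Aa was called (3.18, edgeR adjusted p = 0.0186), while H2-Ab1 (0.71, adjusted p = 0.472) and Cd74 (1.27, adjusted p = 0.198) were not.

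H2-Ob, a chain of the class II loading regulator DO, had no read in 16 C and reads in 4 of 5 leptin libraries. Against the 3-read limit averaged over the 16 C libraries, its mean of 11.4 CPM was at least 9.04-fold higher, with an edgeR adjusted p of 0.0671, and of 0.0343 without replicate 18. H2-Ab1 and H2-Aa encode the 2 chains of 1 molecule, yet their reads did not keep 1 ratio. It was 4.30 to 8.14 in 16 C, 2.70 to 8.33 in the 16-week groups, 1.12 to 2.83 at 4 weeks and 0.774 to 2.19 in 16 L. This was noticed after the values were seen and was not tested.

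Leukocyte genes were set beside class II. Of 19 such genes, 15 were tested in 16 L against 16 C, and 2 were called higher and none lower, beside 8.56% of all genes called. Of the 15, 13 had a positive log2 fold change, with a median of 1.55 beside 0.27 over all genes. Without replicate 18, 4 of 15 were called higher, beside 41.8% of all genes called. Again 13 were positive, and the median was 1.23 beside 0.098 over all genes. Their sum was 184, 1072 and 218 CPM in 16 C and 109 to 1679 CPM in 16 L, and only Cd3e of T cells was at 0 in 16 C. Their part in the class II result was not tested. Across all 34 libraries the log2 levels of Cd74 and Tyrobp, an adaptor of myeloid receptors, were related, with r = 0.55 (permutation p = 0.00071, adjusted over 12 relations 0.00852) and rho = 0.58 (permutation p = 0.0005, adjusted 0.006). With the 2 most extreme Cd74 libraries left out, r was 0.63. The permutations mixed libraries of different groups, so differences between groups enter these p-values. With group means removed, r was 0.48 over the 34 libraries. Within the leptin, 4-week and 16-week experiments it was then 0.78, 0.37 and 0.52. These values were not tested. Within the leptin experiment r was 0.82 and rho 0.81 (exact permutation p = 0.0202 and 0.0218, adjusted 0.0881 and 0.0790, n = 8). At 4 weeks r was 0.41 and rho 0.71 (permutation p = 0.249 and 0.0263, adjusted 0.374 and 0.0790), with r at 0.77 after leaving out the 2 farthest libraries. At 16 weeks r was 0.41 and rho 0.43 (permutation p = 0.119 and 0.0953, adjusted 0.204 and 0.175). On this scale the relation did not pass the correction within any experiment, while in the leptin experiment it passed on log2(RPM + 1), counts scaled by library totals alone, with r = 0.86 (exact permutation p = 0.00645, adjusted 0.0258).

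**Figure D3:**
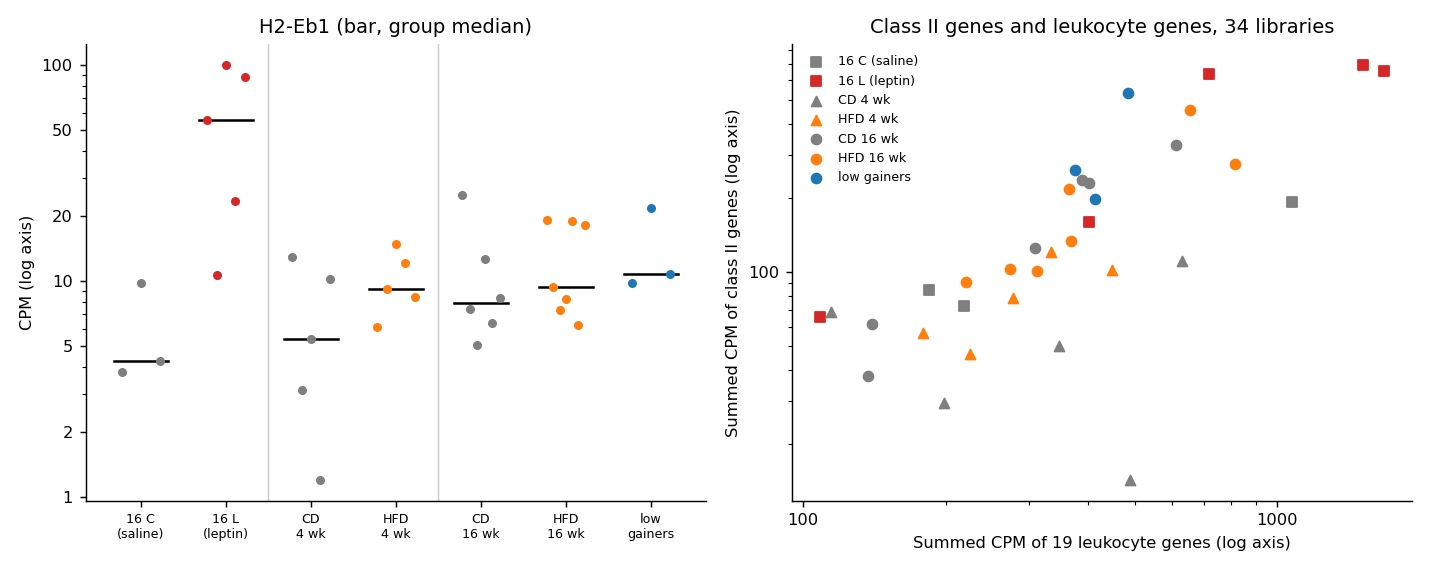
Left, H2-Eb1 in every library in CPM on a log axis, with a bar at the group median. Right, the summed CPM of 10 class II genes against that of 19 leukocyte genes on log axes, 1 point per library; class II sums ran from 14.3 to 695 CPM.

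The relation of B2m to the heavy chains depended on the scaling. With H2-K1 its r was -0.28 over the 34 libraries (permutation p = 0.11, adjusted 0.204; rho = -0.29, permutation p = 0.102, adjusted 0.175) and -0.17 without the 2 farthest. With H2-D1 it was 0.38 (permutation p = 0.0267, adjusted 0.0881; rho = 0.31, permutation p = 0.0725, adjusted 0.174) and 0.19 without them. Within experiments the r with H2-K1 was -0.05, -0.54 and -0.25 for leptin, 4 weeks and 16 weeks, and that with H2-D1 was 0.26, 0.69 and -0.04. At 4 weeks the rho of B2m with H2-D1 was 0.77 (permutation p = 0.0122, adjusted 0.0730). None passed the correction on this scale. On log2(RPM + 1), B2m and H2-D1 passed it over the 34 libraries (r = 0.50, permutation p = 0.00283, adjusted 0.0170) and by rank at 4 weeks (rho = 0.78, permutation p = 0.0106, adjusted 0.0319), and B2m with H2-K1 did not (r = 0.14). With group means removed, the r of B2m with H2-D1 over the 34 libraries was 0.55 on that scale and was not tested.

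Short exposure to HFD, 4 weeks against CD, gave no called member. Of 19 members tested, 0 were called by edgeR and 3 had an unadjusted p under 0.05, while 4.26% of all 11727 genes were called. DESeq2 called 0 members, with 11% of all genes, and limma-voom 9, with 34.5% of all genes. B2m had a mean of 416 ± 71.7 CPM in HFD (SD, n = 5) and 233 ± 139 CPM in CD (SD, n = 5), with a log2 fold change of 0.83 (SE 0.324, edgeR adjusted p = 0.135). In single libraries B2m was 334, 375, 520, 451 and 402 CPM in HFD replicates 13, 14, 3, 4 and 5. It was 467, 234, 110, 203 and 154 CPM in CD replicates 11, 1, 2, 7 and 8, so only CD replicate 11 reached the HFD range. Without it B2m, H2-M3 and Cd74 were called higher, as part of 14.4% of all genes called. Class II genes were low at 4 weeks, with sums of 14.3 to 121 CPM.

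**Figure D4:**
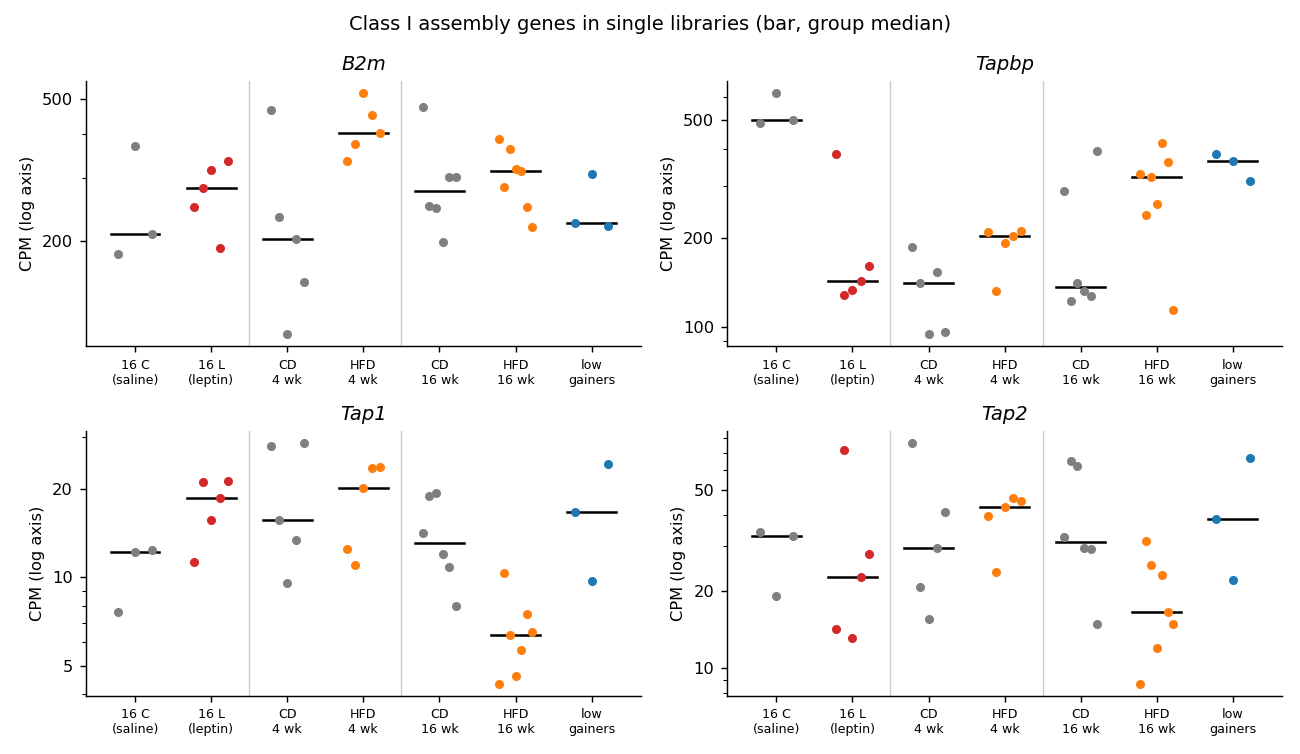
Levels of the 4 class I assembly genes in every library, in CPM on log axes that differ between panels, by group, with a bar at the group median. Tap1 was 4.34 to 10.3 CPM in 16-week HFD, 8.01 to 19.4 CPM in 16-week CD and 9.69 to 24.2 CPM in low weight gainers.

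After 16 weeks, Tap1 of the peptide transporter was lower in most HFD libraries than in CD, but neither Tap1 nor Tap2 was called in the main edgeR analysis. Of 18 members 0 were called by edgeR, with 4 at an unadjusted p under 0.05, beside 0.0276% of all 10861 genes. DESeq2 called 3 (Tap1, Tap2 and H2-T24), with 9.72% of all genes, and limma-voom 0. Tap1 had a lowest, median and highest level of 4.34, 6.34 and 10.3 CPM in HFD and 8.01, 13.1 and 19.4 CPM in CD. All but 1 HFD library were below every CD library (log2 fold change -1.11, SE 0.299, edgeR adjusted p = 0.0658). Tap2 was 8.67, 16.6 and 31.4 CPM in HFD and 14.9, 31.1 and 65.0 CPM in CD (-1.07, SE 0.353, edgeR adjusted p = 0.0898). For Tap2, 3 of 7 HFD libraries were below every CD library. H2-T24 was 43.9, 118 and 173 CPM in HFD and 21.1, 33.5 and 102 CPM in CD (1.19, SE 0.395, adjusted p = 0.0898). Without CD replicate 9, edgeR called Tap1, Tap2 and H2-D1 lower and H2-T24 higher, while 20.5% of all genes were called.

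Low weight gainers had eaten the same HFD for 16 weeks, and the classical class I genes and both transporter chains were higher in them than in the other HFD mice. Of 21 members 4 were called, all higher, and all other members, class II included, did not pass. Across 11258 genes 20.7% were called, 10.8% higher. The share of members called was close to that of all genes with both directions counted. All 4 calls were in 1 direction, and whether their share differs from the 10.8% was not tested. H2-K1 was 312, 372 and 343 CPM in low weight gainer replicates 21, 22 and 23. In HFD its lowest, median and highest levels were 166, 194 and 220 CPM. The groups did not overlap, and the log2 fold change was 0.75 (SE 0.18, edgeR adjusted p = 0.00948), called without each of the 10 libraries in turn.

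H2-D1 was 182, 214 and 185 CPM in the low weight gainers and 84.6, 112 and 176 CPM at the lowest, median and highest in HFD. It did not overlap either (0.65, SE 0.206, edgeR adjusted p = 0.0338), although the call was kept in only 5 of 10 leave-outs. Tap1 was 16.7, 9.69 and 24.2 CPM (1.35, SE 0.318, adjusted p = 0.00835), and Tap2 38.3, 22.1 and 66.7 CPM (1.14, SE 0.345, adjusted p = 0.0281). In both, replicate 22 fell within the HFD range. Without replicate 23 only H2-K1 was called of the members, and 5.19% of all genes. H2-Q10 did not overlap, at 361 to 370 CPM against 195 to 321 CPM, without passing the test (0.48, SE 0.204, adjusted p = 0.0962). In all, 3 of 21 members did not overlap, beside 20.4% of all genes tested. B2m was 220 to 309 CPM, within the HFD range of 219 to 385 CPM.

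Against 16-week CD the low weight gainers had 0 of 19 members called, with 1 at an unadjusted p under 0.05, beside 0.00861% of all 11620 genes. DESeq2 and limma-voom called 0 members too. The 2 comparisons of HFD share the HFD libraries, so their values are set side by side only. Tap1 was -1.11 in HFD against CD, 1.35 in low weight gainers against HFD and 0.26 in low weight gainers against CD (SE 0.388). For H2-K1 the values were -0.39, 0.75 and 0.37 (SE 0.289), and for H2-D1 -0.48, 0.65 and 0.20 (SE 0.313). Leukocyte genes summed to 374 to 483 CPM in the low weight gainers and 221 to 813 CPM in HFD. Cumulus and granulosa genes summed to 6091 to 6809 CPM and 3725 to 5279 CPM. Most of that sum in the low weight gainers was Cyp11a1, at 4987, 4559 and 4328 CPM, against 1180 to 2256 CPM in HFD. Of 11 cumulus and granulosa genes tested, 2 were called higher and 2 lower, with a median log2 fold change of -0.50. The higher sum therefore does not stand for the list, and its part in the higher class I levels was not tested.

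**Figure D5:**
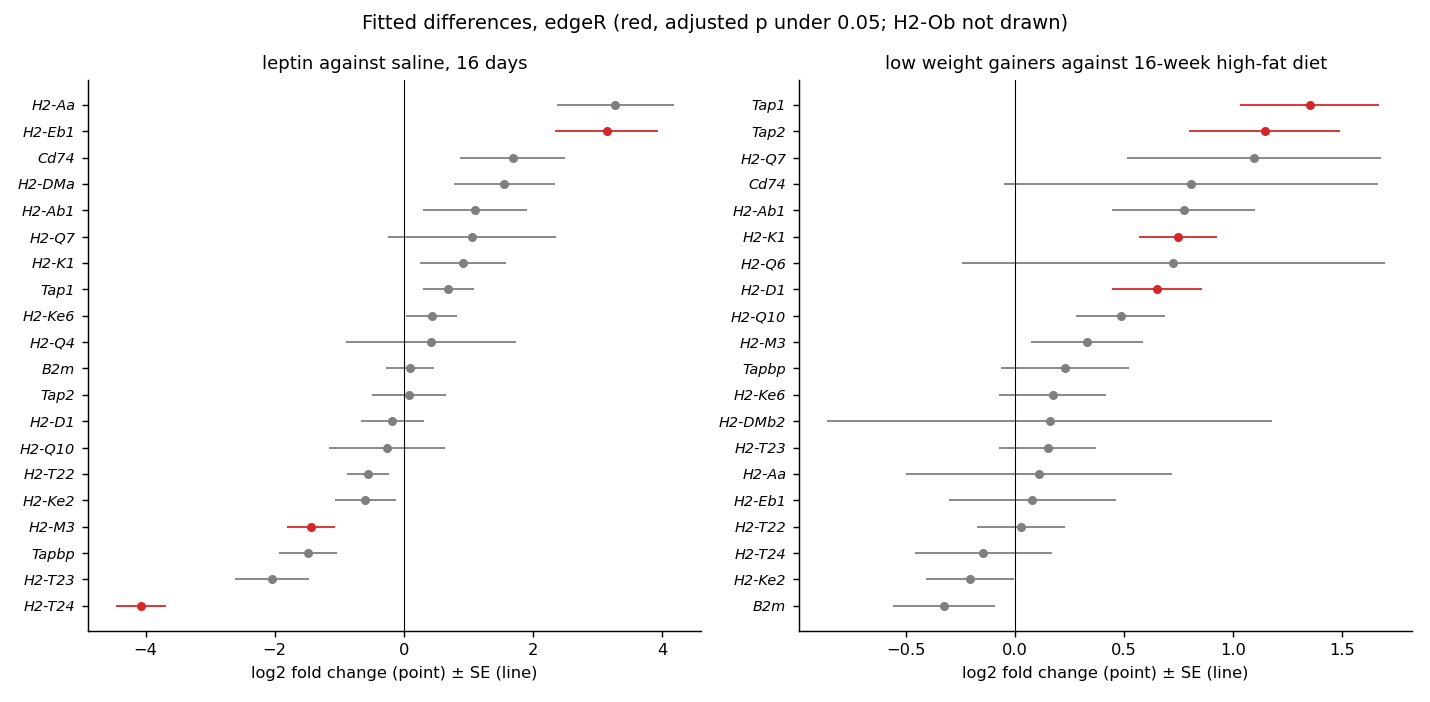
Log2 fold changes (points) with standard errors (lines) of the members tested in 16 L against 16 C (left) and in low weight gainers against 16-week HFD (right), with called members in red and H2-Ob left out. H2-T24 stood at -4.07 on the left, and Tap1, Tap2, H2-K1 and H2-D1 were called on the right, from 0.65 to 1.35.

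The effect of HFD was not shown to differ between 4 and 16 weeks for any member. The interaction gave 0 calls of 20 members by edgeR, with 3 at an unadjusted p under 0.05, and 3.66% of all 12235 genes. DESeq2 called 0 members, with 9.52% of all genes, and limma-voom 9, with 19.2%. Tap1 differed by -0.94 (SE 0.444, edgeR adjusted p = 0.199), Tap2 by -1.05 (SE 0.51, adjusted p = 0.211) and H2-Q7 by -1.82 (SE 0.773, adjusted p = 0.153), each 16-week difference less the 4-week one.

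The remaining members tested were not called in any of the comparisons with all libraries. H2-T22 was 19.4 to 71.6 CPM over the 34 libraries, H2-Ke2 16.97 to 105 CPM and H2-Ke6 13.2 to 73.1 CPM. H2-T22 and H2-Ke2 were called lower in 16 L only without replicate 18, at -0.80 and -1.20 (edgeR adjusted p = 0.0260 and 0.00757). H2-DMa and H2-DMb2, chains of the class II peptide exchanger DM, had medians of 1.85 and 0.373 CPM, and the class I genes H2-Q4, H2-Q6 and H2-Q7 had 1.46, 0.752 and 3.44 CPM. These 5 had at most 15.2 CPM in a library. H2-DMa was 1.55 in 16 L against 16 C (SE 0.782, edgeR adjusted p = 0.197), H2-Q4 0.42 (SE 1.31, adjusted p = 0.851) and H2-Q7 1.05 (SE 1.30, adjusted p = 0.599). In low weight gainers against HFD, H2-DMb2 was 0.16 (SE 1.02, edgeR adjusted p = 0.928) and H2-Q6 0.73 (SE 0.968, adjusted p = 0.620).

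The genes that serve these pathways were counted from 3 lists. Of 13 genes of class I processing and loading, 1 was called lower in 16 L, beside 8.56% of all genes called. It was Canx, the chaperone calnexin (-3.19, SE 0.684, edgeR adjusted p = 0.0294, and -4.00 without replicate 18). Without replicate 18, 6 of 13 were lower and none higher, against 41.8% of all genes called in that fit. In low weight gainers against HFD, where 20.7% of all genes were called, 2 of 13 were higher, Tapbpl, a tapasin homologue that edits peptides (1.10, SE 0.222, adjusted p = 0.00366), and Psme3, a proteasome activator (0.90, SE 0.22, adjusted p = 0.01). None was called in the other 4 comparisons, in which 0 to 3 had an unadjusted p under 0.05.

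Of 23 regulators of MHC transcription, 23 were tested in 16 L and 2 called, a share near the 8.56% of all genes. Rela, a subunit of NF-kB, was higher (2.03, SE 0.495, edgeR adjusted p = 0.0395). Ifngr2, a chain of the interferon gamma receptor, was lower (-1.71, SE 0.403, adjusted p = 0.0369). Without replicate 18 Rela was 2.16 and Ifngr2 -2.05, and 4 of 22 regulators were called higher and 4 lower, beside 41.8% of all genes called. In low weight gainers against HFD 21 were tested, 5 higher and 1 lower, beside 20.7% of all genes called, 10.8% higher. Whether these shares differ was not tested. Rfx5 (1.27, SE 0.43), Rfxap (0.95, SE 0.256) and Nfyc (0.70, SE 0.217), subunits of the factors bound at class I and class II promoters, were higher, as were Rela (1.35, SE 0.313) and Ifnar1 (0.69, SE 0.203), and Creb1 was lower (-1.16, SE 0.299), with edgeR adjusted p from 0.00743 to 0.0443. Nlrc5, the class I transactivator, was not called in 16 L (1.03, SE 0.979, adjusted p = 0.484). Of 8 genes of the class II route 5 or 6 were tested with all libraries, and 1, the protease Ctsb, was called. It was higher in low weight gainers against HFD (0.89, SE 0.24, edgeR adjusted p = 0.0161), where 20.7% of all genes were called. In 16 L against 16 C without replicate 18, 1 of 6 was called, beside 41.8% of all genes. It was Cd86, which was higher (4.72, SE 1.23, edgeR adjusted p = 0.0132).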

How the data were processed

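The authors sequenced CCs by Smart-seq2 and deposited 1 table of whole-number counts per gene and library, without normalization. The submitters' processing notes name Trim Galore 0.4.2, HISAT2 2.0.5 and GRCm38; the counting program is not given in the sources used here, and Smart-seq2 keeps no strand. Groups and replicate numbers came from the sample titles. All 34 columns were used.

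Differences were fitted with edgeR 4.0.16 in R 4.3.3 (TMM, filterByExpr, robust quasi-likelihood test, two-sided) on the libraries of each comparison, with Benjamini-Hochberg adjustment over all genes tested and a threshold of 0.05. DESeq2 1.42.0, limma 3.58.1 (voom with quality weights), RLE, total counts, other filters, 1 fit over 34 libraries and each library left out were alternatives. The script was tested on simulated data. Levels are CPM scaled by TMM over all libraries, and relations used log2 CPM with a prior count of 1 and up to 100000 permutations. The permutations did not keep libraries within their groups. Exon lengths are from GENCODE M21. Lists and members were chosen with earlier results of these data known. Members tested in any comparison were named, those called or of the main roles in full. Reads of near-identical class I genes may be split by the counting.

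Libraries held 1104611 to 13207018 counts. Within groups every pair of libraries differed beyond sampling noise (chi-square per degree of freedom at least 3.26), which does not show that they are independent. Some sets were closer than others. The value was 3.26 for 16-week CD replicates 1 and 2, and 3.60 to 8.78 among 4-week HFD replicates 3, 4 and 5. Among 16 L replicates 20, 21 and 23, those with high H2-K1, it was 11.0 to 13.7. It was 58.8 to 181 between these and replicates 18 or 19. Replicate numbers shared by 7 pairs of diet libraries did not pair them, with correlations of their deviations from -0.227 to 0.113. One result of the regulator list is not reported here.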

Additional observations from a re-analysis of the deposited data

Results flagged for a closer look

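In 115 sets of 1 member in 1 group of 4 to 10 libraries, 9 had a library far from the others by Dixon's ratio on log2(CPM + 1), where chance flags about 1 set in 20. In 16 L replicate 18, Tapbp was 386 CPM against 129 to 161 CPM in the other leptin libraries, and H2-Q10 was 5.30 CPM against 240 to 432 CPM. In 4-week HFD replicate 14, the deepest library of its group, Tapbp (133 CPM), Tap2 (23.9 CPM) and H2-Q10 (289 CPM) were each below the others, which started at 192, 39.7 and 360 CPM. Tapbp was also low in 16-week HFD replicate 6, at 114 CPM against 240 to 419 CPM. H2-Ke2 was 18.3 CPM in 4-week CD replicate 1 against 28.6 to 33.9 CPM. H2-Q10 was 184 CPM in 16-week CD replicate 9 against 254 to 299 CPM. H2-T22 was 28.8 CPM in 16-week HFD replicate 12 against 42.3 to 53.7 CPM. Their sources were not tested.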

How the results depend on the processing

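The calls rest on groups of 3 to 7 libraries, and members near the 3-read limit could not be compared at this depth. In 16 L against 16 C, 3 members were called in the main analysis, 7 by DESeq2, 15 by limma-voom, 8 with total counts (7 higher), 1 without a filter and 7 with all 34 libraries in 1 fit. Leaving out 1 library gave 1 to 9, with 9 without replicate 18 (3 higher, 6 lower), 6 without replicate 19 and 1 in each other case. At 4 weeks limma-voom called 9 and the leave-outs 0 to 3. At 16 weeks DESeq2 called 3, total counts 4, 1 fit over 34 libraries 2, and the leave-outs 0 to 4. In low weight gainers against HFD, limma-voom called 7 and 1 fit over 34 libraries 1 instead of 4, and the leave-outs 1 to 5, with 2 without HFD replicate 14 or low weight gainer replicate 21 and 1 without replicate 23. In the interaction limma-voom called 9, and the leave-outs 0 to 1, the 1 being Tap2 without 4-week CD replicate 11. With the replicate block it called 0 members, as without it, and 10 genes in all. Low weight gainers against CD had 0 in every setting. On log2(RPM + 1) the r of B2m with H2-D1 over 34 libraries was 0.50 and that of Cd74 with Tyrobp in the leptin experiment 0.86, and both then passed the correction. The share of all genes called moved along with these counts. In 16 L against 16 C it was 8.56% in the main analysis, 22.4% by DESeq2, 64.4% by limma-voom, 34.4% with total counts, 33.1% in 1 fit over 34 libraries, 41.8% without replicate 18 and 0.235% to 14.4% without another library. No call changed direction. The causes were not tested.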
